A study of Mus musculus with 2 samples.

Results

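Complement and coagulation factors are plasma proteins that are made largely by hepatocytes. A list of 35 such genes, chosen by name but with earlier results of these data known, was followed on 2 pooled liver arrays. It held 17 complement genes, 17 genes of coagulation and fibrinolysis, and Vtn, which encodes vitronectin and was counted in neither arm because the protein acts in both systems. A probe set annotated to that gene alone was found for 32 members, of 18193 genes with such a probe set on the array. C4b had only a probe set shared with C4a, and C3 and Cpb2 were not analysed here. Each gene was read on its brightest probe set, by the geometric mean of both arrays, which left 15 complement and 16 coagulation genes and Vtn.

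Both groups were mice, and both received 80 mg/kg body weight per day of a cholesterol-linked antisense oligonucleotide on 3 days, with livers taken 24 h after the last dose. One group was given antagomir122, directed against miR-122, a microRNA abundant in hepatocytes. The other was given mm-antagomir122, the scrambled version of it that served as control, so no untreated liver enters the comparison. RNA of 3 livers was pooled before labelling and put on 1 array per group, so there was no replicate, no test between the groups was made, and the spread between animals is unknown. Strain, sex and age of the mice are not given in the sources used here. The question was which liver transcripts differ when miR-122 is silenced.

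Complement is a cascade of proteases that starts at recognition molecules, passes through convertases that split C3 and C5, and ends in a pore, the membrane attack complex. Coagulation runs through vitamin K dependent proteases and a contact system to thrombin, which turns fibrinogen into fibrin, while plasmin dissolves the clot. In liver many of these genes are under the control of hepatocyte transcription factors such as HNF1, HNF4 and C/EBP, and several are acute phase genes.

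Values are MAS5 signals on a linear scale, and a ratio is the log2 of the antagomir122 signal over the mm-antagomir122 signal. The 2% trimmed mean was 500.0 on both arrays. A signal floor of 238 was used, the 60th percentile of mean log2 signal over probe sets other than controls, and 10003 genes lay above it. All 32 members did so, and 31 of them were in the brightest 3335 of those genes, with mean signals above 1276. The spread between the 2 brightest probe sets of 1 gene was an SD of 0.23 in log2 ratio per probe set, or 1.17-fold. It is the SD of the difference within a pair divided by the square root of 2, over 1813 pairs. The brighter probe set of each pair lay in that bright range, and the other had only to pass the floor. This spread includes differences between transcripts and leaves out animals. Signals above 16000 were marked because the top of the scanner range can hide a difference. The 13 hepatocyte markers measured had summed signals of 285911 and 282158 on the antagomir122 and control arrays, but 9 of them were above 16000 on both. None was at 0, which the floor on mean log2 signal already requires. Spiked hybridization controls had a median log2 ratio of -0.27 (18 probe sets), and scaling on them would add 0.27 to every ratio below.

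No measured member differed by 1.5-fold between the pools. At that threshold 0 of 32 were higher and 0 lower, where 5.12% of the 10003 genes were higher and 2.62% lower. Among the 3335 brightest genes the shares were 2.55% and 1.05%. All 32 ratios lay within 2 SD of 0 by the probe set spread, and 29 lay within 1 SD. The exceptions were C8b above 0 and F11 and Klkb1 below it. These 3 were also the members past 1.2-fold, a threshold added after seeing the data. That was 1 of 32 higher and 2 of 32 lower, against 20.5% and 17.0% of all genes and 11.3% and 16.0% of the 3335 brightest. The share of all genes within 1 or 2 SD of 0 by the probe set spread was not counted. Log2 ratios of the 3335 brightest genes had an SD of 0.27.

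The medians of the arms lay on different sides of 0. Coagulation genes had a median log2 ratio of -0.10 (1.07-fold lower), and 15 of 16 lay below 0. Complement genes had a median of 0.04, with 6 of 15 below 0 and 9 above. Among all genes above the floor 49.6% lay below 0 with a median of 0.00, and of the 3335 brightest 59.6% did, with a median of -0.05. The difference of 0.14 between the arms' medians is a description of these 2 pools, since genes of 1 tissue are not replicates. Part of the count below 0 moved with scaling. After a loess correction for signal 11 of 16 coagulation genes lay below 0, and after quantile normalization 12 did. Of the 15 complement genes 6 and 5 did. Scaling on the hybridization controls, which shifts every gene alike, left 2 of 16 coagulation and 0 of 15 complement genes below 0.

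**Figure D1:**
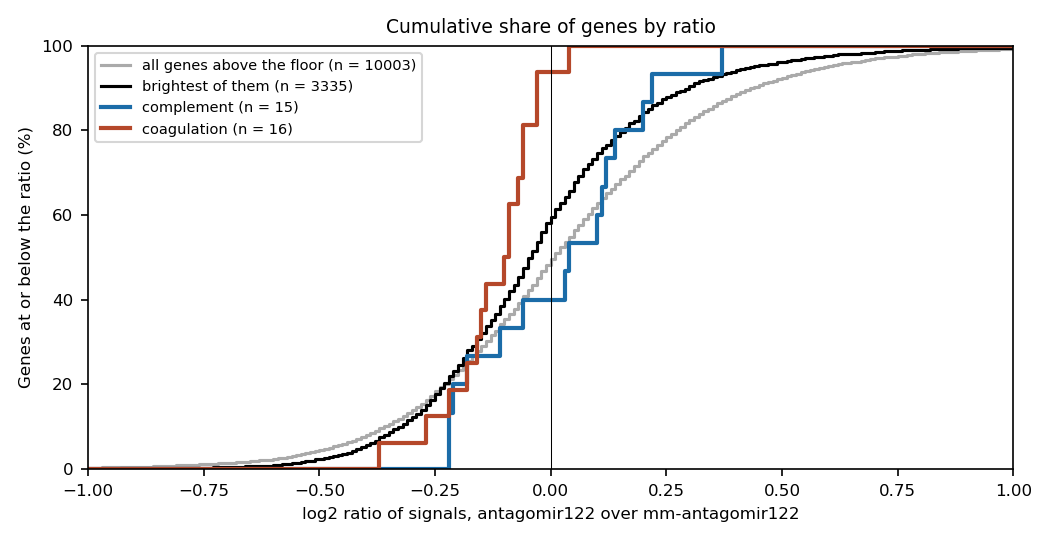
Cumulative share of genes, in percent, at or below each log2 ratio of signals (antagomir122 over mm-antagomir122), for the 15 complement genes, the 16 coagulation genes, all 10003 genes above the signal floor and the brightest 3335 of them. The coagulation line reaches 93.8% at 0 and ends at 0.04, while the complement line runs from -0.23 to 0.37.

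Of the 5 initiation genes of complement, 3 had ratios above 0 and 2 below, all within 1 SD of 0 by the probe set spread. Mbl1 and Mbl2 encode mannose-binding lectins, which recognise microbial sugars. Signals of Mbl1 were 4055 with antagomir122 and 4744 with the control, a log2 ratio of -0.23. Those of Mbl2 were 13501 and 12541, a ratio of 0.11, so the 2 lectin genes lay on opposite sides of 0. C1ra, a protease of the first complement component, had 7542 and 7358 (0.04), and a probe set it shares with C1rb had 1606 and 1660.

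Masp1 had the widest range of ratios over its probe sets. The gene encodes proteases that act with the lectins, in several spliced forms. Its brightest probe set read 3885 with antagomir122 and 3406 with the control, a log2 ratio of 0.19. The next 3 above the floor had ratios of 0.42 (1856 and 1384), 0.83 (1951 and 1097) and -0.15 (578 and 643). The one at 0.83 was 1.78-fold higher, the only probe set of any member that passed 1.5-fold with signals above the floor, and it carries the suffix _s, which marks probes shared by several transcripts. Its last probe set, without a suffix, read 185 and 90.6, both under the floor. The mean over the 4 probe sets above the floor was 0.32. Which spliced form each probe set detects was not tested. Masp2, the protease that cleaves C4 and C2, had signals of 3154 and 3588 (-0.19), and its second probe set had a ratio of -0.01.

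Genes of the convertases were close to even. C2 had 3940 and 3687, a log2 ratio of 0.10, and its other probe sets had 0.20 and 0.12, so all 3 lay above 0. Cfb, factor B of the alternative pathway, had 14786 and 15999 (-0.11). The probe set shared by C4a and C4b, near-identical genes, read 19434 and 18799, a ratio of 0.05 at signals above 16000 on both arrays.

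Of the 6 genes of the membrane attack complex, 5 lay above 0, with a median log2 ratio of 0.13. C8 is built from 3 chains. C8b, the beta chain, had the highest ratio of all members on a brightest probe set, at signals of 4338 and 3365 (log2 0.37, 1.29-fold). C8a, the alpha chain, had 7518 and 6491 (0.21), and C8g, the gamma chain and a lipocalin unrelated to the others, had 12517 and 12281 (0.03). The ratios of C8a and C8g lay within 1 SD of 0 by the probe set spread. Hc, which encodes C5, had 11793 and 10863, a ratio of 0.12. C6 was the dimmest member, with 421 and 382 (0.14). C9, which forms the bulk of the pore, was the exception below 0, with 7764 and 9096 (-0.23), the lowest ratio of the complement arm.

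Both complement regulators among the measured members lay below 0. C4bp, the C4b-binding protein, had 12579 and 13202, a log2 ratio of -0.07. It turned to 0.02 after quantile normalization. Cfi, factor I, which cuts C3b and C4b, had 14737 and 17073 (-0.21), with the control signal above 16000.

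**Figure D2:**
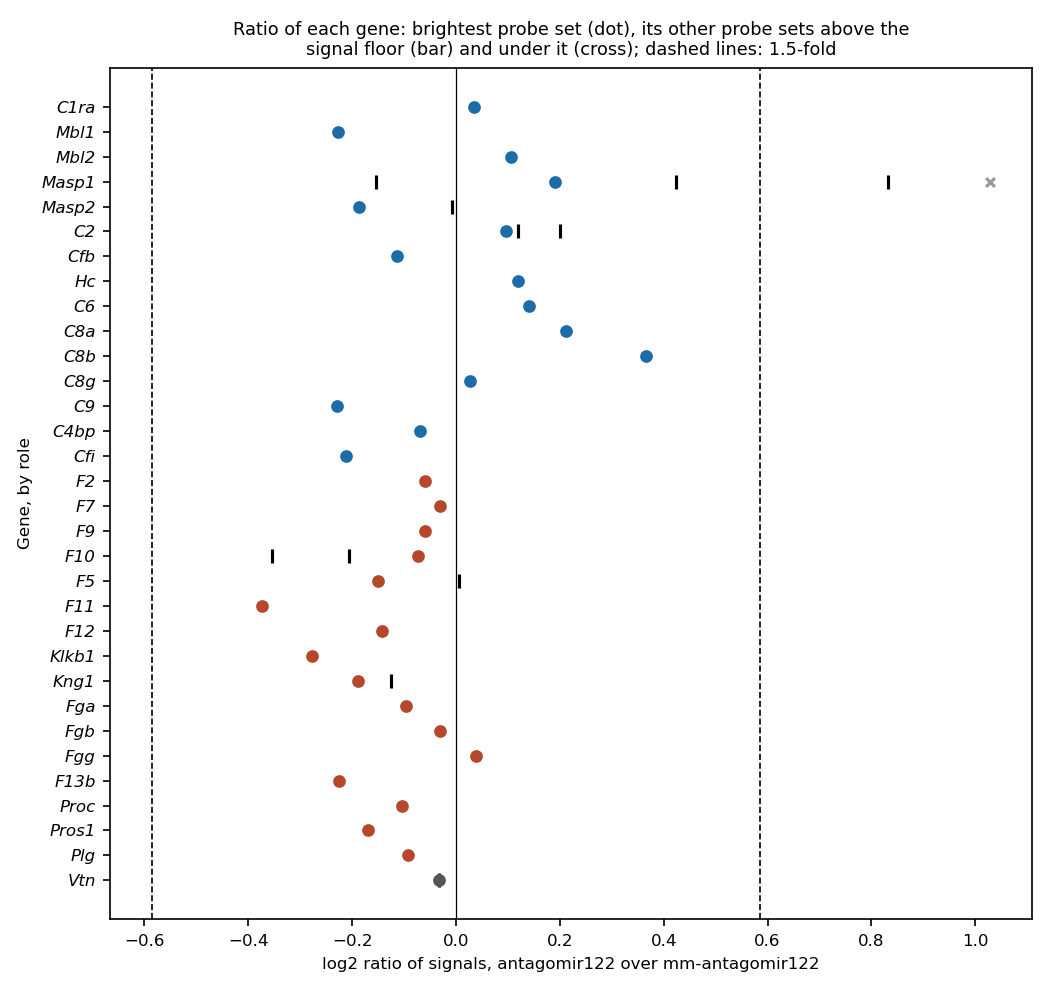
Log2 ratio of signals (antagomir122 over mm-antagomir122) for each of the 32 measured genes, ordered by role, with complement in blue, coagulation in red and Vtn in grey. Dots are brightest probe sets, bars and the cross are further probe sets above and under the signal floor, and dashed lines mark 1.5-fold; every dot lies between -0.37 and 0.37, and the widest row is Masp1.

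The vitamin K dependent proteases were the most even group of coagulation. F2 (prothrombin) had signals of 20767 and 21650, a log2 ratio of -0.06 at signals above 16000. F7, which starts coagulation with tissue factor, had 3476 and 3552 (-0.03), and F9 had 6278 and 6545 (-0.06). F10, the protease of prothrombinase, had 9838 and 10345 (-0.07). Its dimmer probe sets, at 944 and 1090 and at 673 and 860, had ratios of -0.21 and -0.35, so 3 of 3 lay below 0 with a larger difference at lower signal. F7 and F9 lay above 0 after quantile normalization. F5, the cofactor of F10, had 9022 and 10012 (-0.15), while its second probe set, almost as bright, had 9378 and 9341 (0.01).

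Within the contact system F11 and Klkb1 held the lowest ratios of all members. All 4 genes of this system lay below 0, with a median log2 ratio of -0.23 (1.18-fold lower). F11 had 1405 with antagomir122 and 1820 with the control, a log2 ratio of -0.37 or 1.29-fold lower, the lowest of all members. Klkb1, plasma prekallikrein and a close relative of factor XI, had 5549 and 6724 (-0.28, 1.21-fold lower). Kng1, the kininogen from which bradykinin is cut, had 21070 and 24014 (-0.19), above 16000 on both arrays, and its second probe set at 12202 and 13312 had -0.13. F12, which starts this pathway, had 8280 and 9143 (-0.14). All 4 stayed below 0 with quantile normalization and loess correction, and F11 and Klkb1 did when scaled on the hybridization controls (-0.10 and -0.0025).

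The 3 fibrinogen chain genes differed little, at signals where a difference can be hidden. Fga had 26777 and 28618, a log2 ratio of -0.10. Fgb had 30075 and 30721 (-0.03). Fgg had 25731 and 25043, and its ratio of 0.04 was the only one of the coagulation arm above 0. All 3 were above 16000 on both arrays. F13b, the carrier subunit of the enzyme that cross-links fibrin, was not, and had 8202 and 9590 (-0.23).

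Anticoagulant and fibrinolytic genes lay slightly below 0. Proc, protein C, had 8981 and 9656 (-0.10). Its cofactor gene Pros1, protein S, had 1921 and 2160 (-0.17). Plg, plasminogen, had 22988 and 24521 (-0.09), above 16000 on both arrays. Together with F2, F7, F9 and F10, Proc and Pros1 make up 6 vitamin K dependent members, which lay between -0.17 and -0.03. Vtn had 22875 and 23386 (-0.03), also above 16000 on both, and its second probe set had -0.03.

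Bright signals were unevenly spread over the arms. Of the coagulation genes 6 of 16 were above 16000 on both arrays, against 0 of 15 complement genes, where Cfi passed it on the control array alone. The 147 genes of the whole array above 16000 on both had log2 ratios from -0.27 to 0.38 and a median of -0.01. Without genes past 16000 on either array, the coagulation median was -0.15 over 10 genes, all 10 of them below 0, and the complement median was 0.07 over 14 genes.

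**Figure D3:**
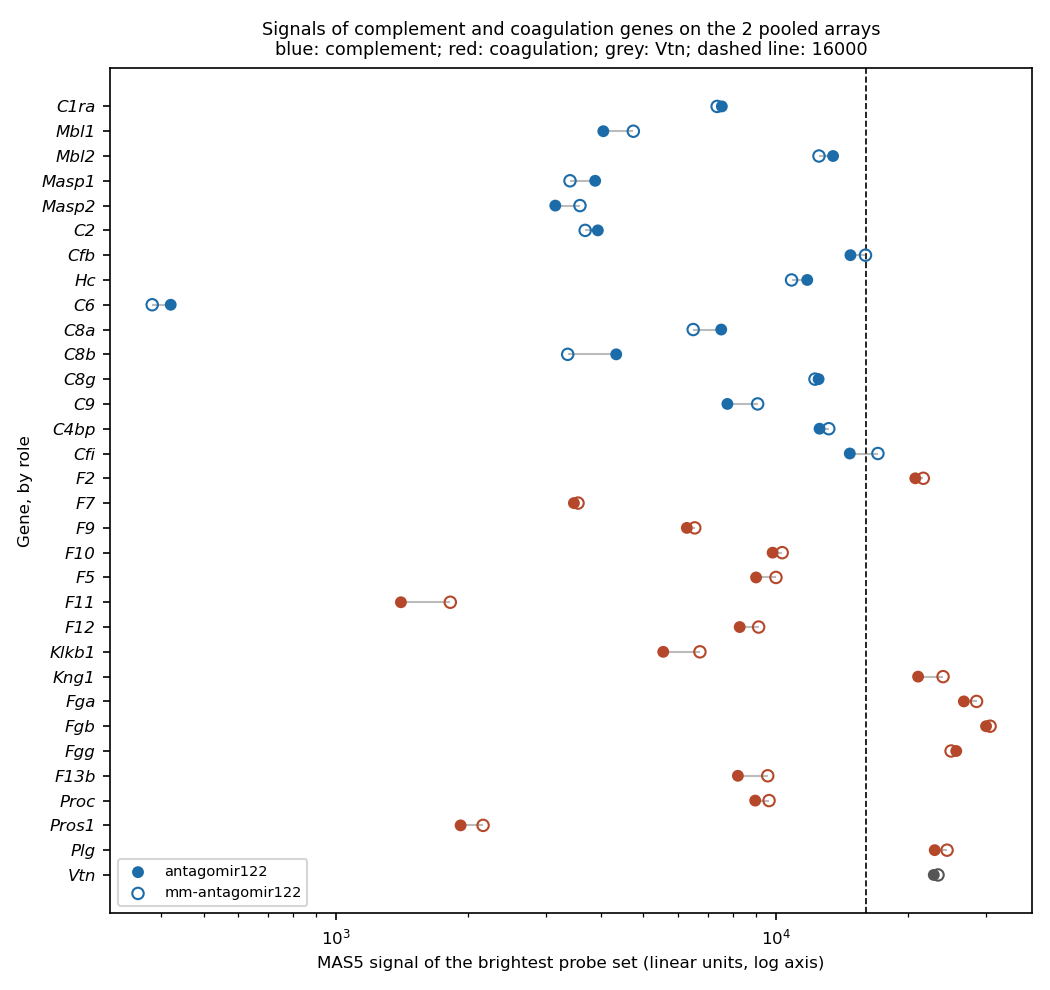
MAS5 signal of the brightest probe set (linear units, log axis) of each measured gene with antagomir122 (filled) and mm-antagomir122 (open), 1 array each, with complement in blue, coagulation in red and Vtn in grey. The dashed line marks 16000, which 7 genes exceed on both arrays; 22 of the 32 genes have the filled point to the left.

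Several members lie side by side in the genome, and 6 pairs of measured members are immediate neighbours among the protein-coding genes of RefSeq (GRCm38.p6). F11 and Klkb1, which held the lowest ratios, are such a pair, as are C8a and C8b, which held the highest. F7 and F10 had ratios of -0.03 and -0.07. Fga lies between Fgg and Fgb, with ratios of -0.10, 0.04 and -0.03. C2 and Cfb were on opposite sides of 0, at 0.10 and -0.11. The ratios of neighbours had the same sign in 4 of the 6 pairs, as a description. Neighbours were at most 0.21 apart.

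Promoters are shown for the pairs at both ends of the range and for the fibrinogen genes, whose products form 1 protein. RefSeq (GRCm38.p6) gave a promoter for 27 of the 35 genes, in 28 entries, and the 250 bases before the start were searched on both strands. Letters in capitals match an HNF1 core motif (GTTAAT) or a C/EBP site (TTGCNNAA), and each sequence reads 5′ to 3′ in the direction of its gene. The F11 window is chr8:45262032-45262281 on the minus strand, and that of Klkb1 is chr8:45294836-45295085 on the minus strand.
F11: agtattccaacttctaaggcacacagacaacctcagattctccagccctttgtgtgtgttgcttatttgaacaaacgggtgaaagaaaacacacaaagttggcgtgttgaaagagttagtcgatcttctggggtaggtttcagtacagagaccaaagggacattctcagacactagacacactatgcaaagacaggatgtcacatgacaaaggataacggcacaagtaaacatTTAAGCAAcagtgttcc
Klkb1: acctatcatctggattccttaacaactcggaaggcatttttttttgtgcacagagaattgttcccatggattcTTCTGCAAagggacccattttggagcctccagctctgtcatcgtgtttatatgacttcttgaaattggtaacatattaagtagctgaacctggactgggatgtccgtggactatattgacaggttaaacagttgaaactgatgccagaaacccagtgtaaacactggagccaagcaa

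Each of these 2 promoters held 1 C/EBP match and 0 HNF1 matches. The windows of the C8 genes are chr4:104876399-104876648 on the minus strand for C8a and chr4:104766067-104766316 on the plus strand for C8b, and each held 1 HNF1 match and 0 C/EBP matches.
C8a: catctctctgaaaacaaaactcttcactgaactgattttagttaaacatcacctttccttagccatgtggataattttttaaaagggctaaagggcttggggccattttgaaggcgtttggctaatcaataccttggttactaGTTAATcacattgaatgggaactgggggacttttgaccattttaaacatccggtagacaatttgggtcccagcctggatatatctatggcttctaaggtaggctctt
C8b: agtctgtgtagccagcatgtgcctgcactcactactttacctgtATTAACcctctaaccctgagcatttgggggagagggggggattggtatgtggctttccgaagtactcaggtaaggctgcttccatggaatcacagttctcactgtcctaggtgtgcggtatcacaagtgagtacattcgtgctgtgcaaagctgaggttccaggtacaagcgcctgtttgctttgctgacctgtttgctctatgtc

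The fibrinogen windows are chr3:83025903-83026152 on the plus strand for Fga, chr3:83049864-83050113 on the minus strand for Fgb and chr3:83007474-83007723 on the plus strand for Fgg. Fga and Fgb each held 1 match to both motifs, and Fgg held 0 of either, while the ratios of the 3 genes lay within 0.14 of each other.
Fga: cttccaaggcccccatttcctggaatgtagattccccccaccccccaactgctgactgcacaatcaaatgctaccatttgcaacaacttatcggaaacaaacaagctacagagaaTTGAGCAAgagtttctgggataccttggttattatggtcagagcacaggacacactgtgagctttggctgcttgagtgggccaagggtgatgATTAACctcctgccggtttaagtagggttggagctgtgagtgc
Fgb: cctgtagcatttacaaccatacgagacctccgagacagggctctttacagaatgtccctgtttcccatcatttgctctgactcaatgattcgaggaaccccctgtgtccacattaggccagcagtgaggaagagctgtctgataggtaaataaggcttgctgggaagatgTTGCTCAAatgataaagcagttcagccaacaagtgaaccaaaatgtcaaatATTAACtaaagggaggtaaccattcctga
Fgg: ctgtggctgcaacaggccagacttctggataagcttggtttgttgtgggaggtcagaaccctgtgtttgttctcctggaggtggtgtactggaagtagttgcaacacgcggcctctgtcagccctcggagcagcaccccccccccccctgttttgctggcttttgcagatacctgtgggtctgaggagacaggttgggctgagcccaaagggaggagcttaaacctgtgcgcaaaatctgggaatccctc

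Over all members the HNF1 motif was in 9 of 28 promoter entries (32.1%), against 6.43% of 32851 promoters of the same length. It was in 5 of 13 complement and 3 of 14 coagulation entries and in that of Vtn. The C/EBP motif was in 7 of 28 (25.0%), against 9.56% of all, in 2 of 13 complement and 5 of 14 coagulation entries. An HNF4 core motif (CAAAGT), not marked in the sequences above, was in 4 of 28 (14.3%), against 12.6% of all. No matches of different motifs overlapped in these entries. Genes with the HNF1 motif lay on both sides of 0: F13b (-0.23), Fga, C4bp, Fgb and Vtn below, and C1ra, Hc, C8a and C8b (0.37) above. Measured genes with the C/EBP motif (C9, F9, F11, Fga, Fgb and Klkb1) lay below 0 as deposited, as did most of the coagulation arm. F9 turned to 0.04 after quantile normalization, and F9 and Fgb each to 0.02 after loess correction. The pairs shown were picked by their ratios, and a link between motif and ratio was not tested. A match is a string of letters in the window, and binding was not measured.

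The transcription factor genes of liver were split around 0. Of 14 measured genes, 7 lay above 0, with a median log2 ratio of 0.02. At least 1.5-fold higher was 1 gene (7.14%, against 5.12% of all genes). That gene was Onecut1 (HNF6), at signals of 554 and 249 (2.22-fold) near the floor, and Foxa1 had 826 and 559 (0.56). At 1.2-fold 4 of the 14 were higher and 0 lower, where 20.5% and 17.0% of all genes were. Hnf4a (-0.07), Cebpa (-0.08), Cebpb (-0.20) and Cebpd (0.29) are named because HNF4 and C/EBP motifs were searched. Further probe sets of Hnf4a and Cebpb also lay below 0.

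Complement genes outside the list of members had a higher median than the members. Of 36 such genes 26 had a probe set annotated to that gene alone, and 22 of these were above the floor. The median log2 ratio of those 22 was 0.31, against 0.04 for the 15 complement members. The 2 that were at least 1.5-fold higher (9.09% of the 22, against 5.12% of all genes) were C1qc and Cd46. C1qc, a chain of the C1q recognition molecule made by macrophages, had 11134 and 6903 (1.61-fold). Cd46, a membrane regulator, had 363 and 218. The control signal of Cd46 was under the floor, so the gene passed the floor on mean signal only through the antagomir122 signal. With that control signal raised to the floor the ratio is 1.52-fold, and dim values cannot be told from background. None was 1.5-fold lower, where 2.62% of all genes were. At 1.2-fold 12 of the 22 were higher and 3 lower, where 20.5% and 17.0% of all genes were. Cpn1, the carboxypeptidase that inactivates anaphylatoxins, had the lowest ratio, at 4103 and 6071 (-0.57), with a second probe set at -0.14. Without the 3 C1q genes the median was 0.13 over 19 genes, of which 11 lay above 0 and 8 below, from -0.57 to 0.73. Only the C1q genes were taken out, and which of the rest macrophages express was not tested.

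Macrophage and neutrophil markers were higher in the same pool. All 11 macrophage markers measured lay above 0, with a median of 0.46 and summed signals of 66236 against 50046, led by Adgre1 (0.60) and Fcgr1 (0.58). Of 8 neutrophil markers 7 lay above 0, with summed signals of 8902 against 3157, led by S100a8 (2.22) and S100a9 (2.14). The median was 1.09, between Ltf and Mpo, whose control signals of 198 and 164 were under the floor, and it was 0.69 once dim signals were raised to the floor, a setting added after seeing the data. None of these markers was at 0 on either array, which the floor already requires. Endothelial markers had a median of 0.04 over 12 genes, 7 above 0 and 5 below, with summed signals of 19477 and 19344. Largest in size were Tek (-0.73) and Tie1 (-0.37), both below 0. Tek was the only 1 of the 12 past 1.5-fold, where 2.62% of all genes were lower. In whole liver RNA, more cells of a type and more RNA per cell cannot be told apart, and the part of leukocytes in the complement values was not tested.

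Coagulation genes outside the list had ratios on both sides of 0. Of 37 such genes 34 had a probe set annotated to that gene alone, and 23 of these were above the floor. Those 23 had a median log2 ratio of -0.04, 15 below 0 and 8 above, and a range from -0.44 to 0.69. At 1.2-fold 3 of the 23 were higher and 4 lower, where 20.5% and 17.0% of all genes were. The single gene past 1.5-fold (4.35% of the 23, against 5.12% of all genes that were higher) was Plaur, the urokinase receptor, at 414 and 256 (1.61-fold higher), near the floor. Next in size were Ggcx (-0.44), the carboxylase that vitamin K dependent factors require, and F2r (0.41), a thrombin receptor. Vkorc1, which regenerates vitamin K for that carboxylase, is named after its value was seen and had 12214 and 15491 (-0.34). A second probe set of Ggcx lay on the other side of 0, at 0.34.

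Acute phase genes, which include the fibrinogen chains by function, were even as a list. All 19 were above the floor, with a median log2 ratio of 0.00, and 12 were above 16000 on both arrays. Orm2, an orosomucoid, was 1.59-fold lower at 10728 and 17090. It was the only one of the 19 past 1.5-fold, where 2.62% of all genes were lower. Cd14 had 872 and 618 (0.50). Hepatocyte markers had a median of 0.02 over 13 genes, and of -0.06 over the 4 not above 16000, with Ass1 lowest (-1.12, on a dim probe set at 245 and 531) and Apoc3 next in size (0.14).

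**Figure D4:**
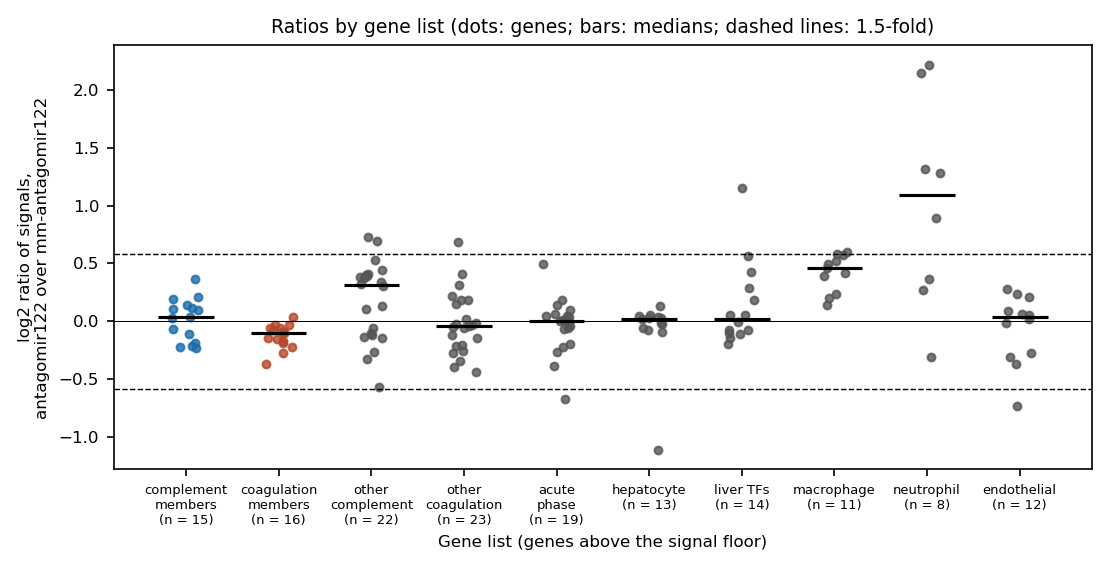
Log2 ratio of signals (antagomir122 over mm-antagomir122) by gene list, for genes above the signal floor, with bars at the medians and dashed lines at 1.5-fold. The complement and coagulation members lie between the dashed lines, while the median of macrophage markers is 0.46 and that of neutrophil markers is 1.09, or 0.69 once dim signals were raised to the floor.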

How the data were processed

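The 2 arrays were single-colour Affymetrix arrays, and the authors deposited MAS5 signal intensity values per probe set on a linear scale, per the submitters' processing notes; no version is given in the sources used here. A trimmed mean of 500.0 on both arrays shows scaling to a common target. Genes were named from the platform annotation and looked up by identifier in RefSeq (GRCm38.p6): of 45101 probe sets, 34945 had 1 gene, of which 34741 matched, 932 had several, 9160 had none and 64 were controls. Samples were grouped by title. Members and lists were chosen with earlier results of these data known.

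Ratios were taken as deposited, with no pseudocount. Dim values cannot be told from background without detection calls, and 1 array per group limits the precision. All 35 members were named where measured, with the other pathway genes past 1.5-fold or among the 3 largest of their list, and the 2 largest of every remaining list. Calculations used Python 3.11.15, pandas 2.3.3, numpy 2.4.6 and statsmodels 0.14.6, were tested on simulated data, and were repeated under other scalings, probe set choices, floors and thresholds.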

Additional observations from a re-analysis of the deposited data

How the results depend on the processing

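Leaving out a replicate was not possible with 1 array per group. No paired analysis was possible because each group had 1 sample. Over 12 other settings the difference between the arms' medians kept its sign, from 0.13 to 0.29, the highest without signals above 8000. Not all of these settings test it. Rescaling by hybridization controls or centring each array shifts every log2 ratio alike, so neither could change this difference. It was also unchanged, at 0.14, with the mean over probe sets, with the second brightest one, and with suffixed probe sets left out. The complement median stayed above 0 in all 12, at 0.31 when scaled on the hybridization controls and between 0.03 and 0.12 otherwise. The coagulation median turned to 0.17 when scaled on those controls and lay between -0.17 and -0.04 in the other 11. No member was 1.5-fold lower under any of the other settings, and 1, C8b, was at least 1.5-fold higher when scaled on the hybridization controls. At the added threshold of 1.2-fold 1 member was higher and 2 were lower. The counts over all genes, 512 higher and 262 lower, became 1693 and 63 when scaled on those controls, 816 and 485 at 1.4-fold, 83 and 31 at 2-fold, and 2051 and 1704 at 1.2-fold. They were 1163 and 531 with the floor at the 40th percentile and 184 and 98 at the 80th. The cause of the shift in the hybridization controls was not tested.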
